A study of Mus musculus with 9 samples.

Results

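The comparison was between microRNAs (miRNAs) in extracellular vesicles released by mouse podocytes in high glucose and in normal glucose. Its members were every miRNA identifier with a count, taken from the 6 libraries whose treatment label is high glucose or normal glucose, out of 9 libraries in the series. Podocytes, the cells whose interlocking foot processes close the glomerular filter, came from 1 conditionally immortalized line, differentiated for 10 days with 5% fetal bovine serum before treatment. For 48 h the cells then had 5.3 mM glucose (normal glucose, 3 libraries) or 30 mM glucose (high glucose, 3 libraries). The other 3 libraries had 5.3 mM glucose plus 24.7 mM mannitol, an osmolality control, and entered the fit, where they share in the estimate of the spread and in the choice of miRNAs tested. Vesicles were precipitated with a polymer reagent, and whether the serum was first cleared of its own vesicles is not stated in the labels. Precipitates can also carry RNA of proteins and lipoproteins, and fewer vesicles of 1 source and less RNA per vesicle cannot be told apart in such bulk libraries.

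A miRNA is a short RNA cut from a hairpin, which yields a 5p arm and a 3p arm. Loaded on an Argonaute protein, it pairs with messenger RNAs mainly through its seed (bases 2 to 8) and lowers their output, so that miRNAs with the same seed share most predicted targets. Vesicles carry a selection of a cell's miRNAs into the surrounding fluid, and in the kidney such vesicles reach the urine, where they are studied as markers of diabetic injury of the filter. The miR-30 family is abundant in podocytes and restrains Notch and cytoskeletal genes there.

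Mature sequences are shown for the miRNAs on which the results turn, as RefSeq gives them (GRCm38.p6), 5′ to 3′, with the seed in capitals. The first 6 were higher in all 3 high glucose libraries, except miR-101a-3p, which is shown beside its relative miR-101b-3p. The following 4 are miR-30e-5p, the relative of miR-30a-5p, and the abundant miR-10a-5p, miR-10b-5p and let-7b-5p, and the last 5 are those with low values in high glucose.
miR-30a-5p: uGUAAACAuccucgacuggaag
miR-140-3p: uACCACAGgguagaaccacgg
miR-27b-3p: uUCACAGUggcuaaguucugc
miR-101a-3p: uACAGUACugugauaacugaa
miR-101b-3p: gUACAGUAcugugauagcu
miR-3535: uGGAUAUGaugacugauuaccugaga
miR-30e-5p: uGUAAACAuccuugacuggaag
miR-10a-5p: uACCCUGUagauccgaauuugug
miR-10b-5p: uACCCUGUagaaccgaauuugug
let-7b-5p: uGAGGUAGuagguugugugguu
miR-615-3p: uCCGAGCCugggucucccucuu
miR-543-3p: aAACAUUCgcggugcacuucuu
miR-409-3p: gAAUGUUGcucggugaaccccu
miR-433-3p: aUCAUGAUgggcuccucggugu
miR-92b-3p: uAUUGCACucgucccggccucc

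The gene of miR-30a-5p is at chr1:23272274-23272295 (plus strand) with no host gene annotated on that strand. miR-140-3p is at chr8:107551288-107551308 (plus) in an intron of Wwp2, and miR-615-3p at chr15:103014969-103014990 (plus) in an intron of Hoxc5. Imprinted Dlk1-Dio3 miRNAs are at chr12:109717304-109717325 (miR-543-3p), chr12:109743204-109743225 (miR-409-3p, an intron of the long RNA Mirg) and chr12:109591781-109591802 (miR-433-3p), all on the plus strand. miR-3535 is at chr1:86352062-86352087 (minus), in an intron of the nucleolin gene Ncl, where the GENCODE annotation also places the snoRNA gene Gm24148 on the same strand. In all, 1623 of 1915 identifiers and 403 of the 479 listed in any library matched a RefSeq sequence by name.

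Total miRNA counts were 1539514, 1087144 and 1107224 in normal glucose replicates 1, 2 and 3, and 725211, 1276674 and 2553690 in high glucose. This order of replicates holds for all values below, which are CPM, a library's miRNA counts scaled to the same total in every library. No library lists a count from 1 to 9, so a listed 0 stands for 0 to 9 reads, which is below 13.8 CPM in high glucose replicate 1 and below 9.20 CPM elsewhere. Of the 1915 identifiers 430 were listed in at least 1 of the 6 libraries and 261 in all 6. Pearson correlations of log2 CPM were 0.974 to 0.981 between normal glucose libraries, 0.979 to 0.992 between high glucose libraries, and 0.971 to 0.987 between the groups, so that libraries of unlike treatment were about as alike as libraries of one treatment. High glucose replicate 1 was the shallowest library. Of the markers fixed for podocytes, all 6 were listed, at a summed level of 126474 to 140264 CPM in normal glucose and 150017 to 225026 CPM in high glucose, nearly all of it from miR-30 members. Of the markers of other cells, 3 of 4 were listed for tubule (miR-204-5p at 0; sum 2286 to 5008 CPM), 2 of 3 for red cells (miR-144-3p at 0; sum 3124 to 8611 CPM) and 2 of 3 for leukocytes (miR-142a-3p at 0; sum 0 to 57.9 CPM). The partner arms miR-142a-5p and miR-144-5p were listed in 5 and 1 of the 6 libraries. Liver miR-122-5p stood at 9508 to 21808 CPM in normal glucose and 9566 to 21078 CPM in high glucose.

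The comparison asked which vesicle miRNAs differ between podocytes in high and in normal glucose. In edgeR's quasi-likelihood test 0 of 361 miRNAs passed an adjusted p of 0.05 (0% called), and the smallest Benjamini-Hochberg adjusted p was 0.995. At an unadjusted p under 0.05 there were 10 miRNAs (2.77%), 3 higher (0.831%) and 7 lower (1.94%) in high glucose. By DESeq2 0 passed, with 15 at that unadjusted p, and by limma-voom 0, with 6. edgeR with a replicate block taken from the titles called 0, with 19 at that p, and the block with the 6 libraries alone gave 0 and 25. Every miRNA named below is therefore described by values that did not pass.

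Fold changes here are log2 values from that fit, positive where high glucose is higher, with standard errors (SE) from the same fit. They were positive for 168 of the 361 miRNAs (46.5%), with a median of -0.04. Absolute values were under 0.5 for 241 miRNAs and at least 1 for 43. The 95% interval lay wholly between -1 and 1, that is within a 2-fold change either way, for 109 miRNAs, and for 252 it reached past that bound, so that a 2-fold change was not excluded there. Precision followed the level. The median SE was 0.89 for the 199 miRNAs with a mean under 100 CPM, 0.34 for the 87 from 100 to 1000 CPM, and 0.30 for the 75 above.

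**Figure D1:**
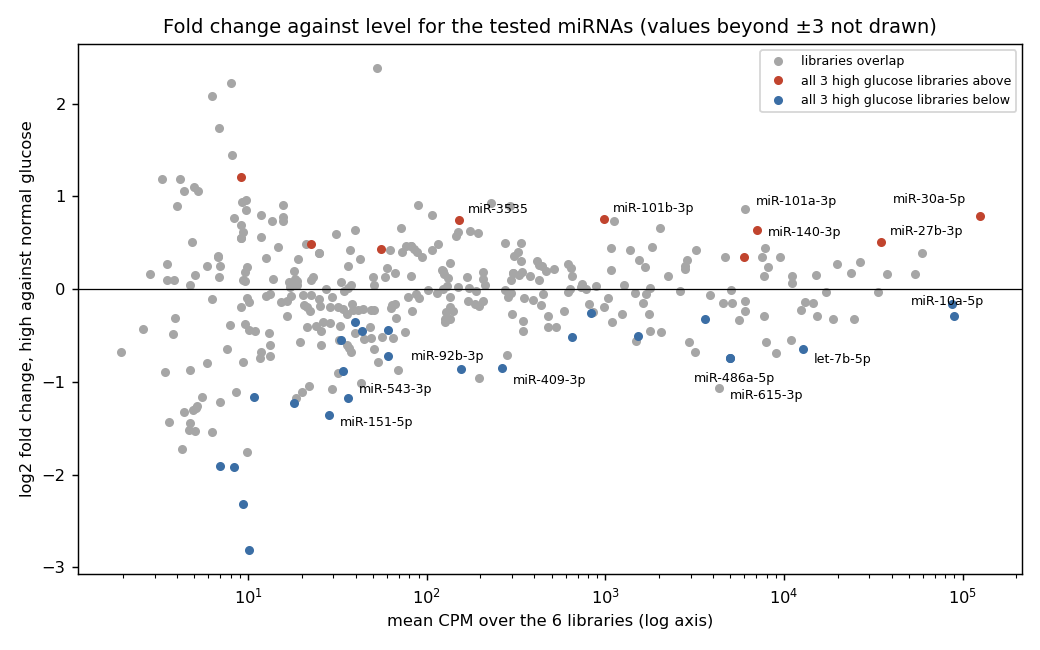
Log2 fold change of high against normal glucose (vertical axis) against the mean CPM over the 6 libraries (horizontal log axis); each point is a miRNA, 357 of the 361 tested are drawn, and colours mark those whose 3 high glucose libraries all lie above or all below the 3 normal glucose libraries. Points spread widely below 100 CPM, and among abundant miRNAs miR-30a-5p at 0.79 is the farthest right.

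For 34 of the 361 miRNAs all libraries of one group lay above all of the other in CPM (9.42%), 9 higher (2.49%) and 25 lower (6.93%) in high glucose. Overlap of levels is judged on CPM throughout, whereas the fold changes also use TMM scaling factors. These factors were 1.04, 0.885 and 1.11 in normal glucose and 1.07, 0.858 and 0.924 in high glucose. Divided by them, miR-30a-5p in high glucose replicate 1 falls below normal glucose replicate 2, so some of these separations depend on the scaling. For 4 of the 25 lower ones (miR-204-3p, miR-200c-3p, miR-365-2-5p and miR-7682-3p) a listed 0 in high glucose could hide a value as high as in normal glucose. The 9 higher were miR-30a-5p, miR-27b-3p, miR-140-3p, miR-101b-3p, miR-3535, miR-1839-5p, miR-9-3p, miR-452-5p and miR-212-3p. Among the abundant lower ones were miR-10a-5p, miR-10b-5p, let-7b-5p, miR-486a-5p, miR-99a-5p, miR-206-3p, miR-181d-5p and miR-224-5p. No miRNA was listed in all 3 libraries of one treatment and in none of the other, a count of 0 in each direction.

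Among podocyte and kidney miRNAs, the miR-30 family stood highest. Levels of miR-30a-5p were 87587, 93445 and 106766 CPM in normal glucose and 107944, 179693 and 170597 CPM in high glucose. High glucose replicate 1 lay barely above normal glucose replicate 3, while the other two high glucose libraries lay far above. The fold change was 0.79 (SE 0.32, 95% interval 0.12 to 1.47, edgeR unadjusted p = 0.0245), and it ranged from 0.61 to 1.0 with single libraries left out. Its relative miR-30e-5p, which differs from it by C13U (positions from the 5′ end of miR-30a-5p) and has the same seed, had 643, 977 and 1051 CPM in normal glucose and 680, 1981 and 1364 CPM in high glucose, a value of 0.73 (SE 0.50) with overlapping groups, or 0.28 without high glucose replicate 2. The other members were near 0, with 0.17 (SE 0.27) for miR-30d-5p, 0.14 (SE 0.33) for miR-30b-5p and 0.04 (SE 0.31) for miR-30c-5p. All 5 tested members were thus positive, with a median of 0.17 beside -0.04 for all miRNAs, or 4 of 5 when scaled to the total miRNA count or to the library constant, where miR-30c-5p turned negative. No member passed, and 1 of 5 had an unadjusted p under 0.05 by edgeR, beside 2.77% of all miRNAs tested.

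miRNAs enriched in kidney tubule followed the same sign with less separation. The 3 tested members were positive, with 0.63 (SE 0.32) for miR-194-5p, 0.58 (SE 0.42) for miR-215-5p and 0.42 (SE 0.30) for miR-192-5p. With single libraries left out these went down to 0.41 (high glucose replicate 1), 0.25 (high glucose replicate 3) and 0.22 (normal glucose replicate 1). High glucose replicate 1 was the highest library for miR-192-5p (4635 CPM, against 2085 to 3233 CPM elsewhere) and for miR-194-5p (281 CPM, against 122 to 179 CPM elsewhere). It was not for miR-215-5p, at 92.4 CPM there, 177 and 237 CPM in the other high glucose libraries and 77.9 to 156 CPM in normal glucose. The WT1-linked miR-193 and miR-365, of which miR-193a targets the podocyte transcription factor WT1, pointed the other way in 3 of 4 tested members. The exception was miR-193a-5p, at 0.13 (SE 0.34). Its other arm miR-193a-3p was listed at 0 in all 6 libraries, so the 5p value does not stand for both arms. Their summed level was 201, 130 and 148 CPM in normal glucose and 123, 89.3 and 125 CPM in high glucose. There was no overlap in CPM (exact permutation p = 0.1, two-sided, the smallest that 3 against 3 libraries allow). These are rare miRNAs, and miR-193b-3p itself moved from -0.65 to 0.08 without normal glucose replicate 1, where it stood at 117 CPM against 24.8 to 52.9 CPM elsewhere.

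Of 26 miRNAs linked to diabetic kidney disease in general knowledge, 19 were tested, 9 positive and 10 negative, with a median of -0.02. Without overlap 0 were higher, beside 9 of all 361 miRNAs (2.49%), and 2 were lower, beside 25 (6.93%). The lower ones were let-7b-5p at -0.64 (SE 0.32) and miR-200c-3p at -1.16 (SE 1.34), the latter near the listing minimum. For let-7b-5p the groups overlap when divided by the TMM factors. The growth and fibrosis miRNA miR-21a-5p had 55028, 49673 and 57047 CPM in normal glucose and 46763, 72882 and 75817 CPM in high glucose. Thus high glucose replicate 1 was the lowest of the 6 and the other two were the highest, at a fold change of 0.39 (SE 0.35). The collagen-targeting miR-29a-3p was spread in the same way, at 1250, 1089 and 1369 CPM in normal glucose and 979, 1675 and 1873 CPM in high glucose (0.42, SE 0.37; 0.23 without high glucose replicate 3). Of its relatives miR-29b-3p was listed in 1 of the 6 libraries and miR-29c-3p in none. The p53 target miR-34c-5p, which is not on that list, had 1689, 1709 and 1575 CPM in normal glucose and 1577, 3078 and 2556 CPM in high glucose. Its fold change was 0.66 (SE 0.46), or 0.39 without high glucose replicate 2, again with high glucose replicate 1 among the normal glucose libraries. It was the most positive of 4 tested miR-34 members, of which 2 were positive and 2 negative (median 0.02). Of the diabetic kidney disease list, miR-25-3p at -0.03 (SE 0.27), miR-23b-3p at -0.03 (SE 0.27), miR-451a at -0.02 (SE 0.32) and miR-155-5p at -0.04 (SE 0.34) were nearly level. The 95% interval of miR-25-3p ran from -0.61 to 0.55.

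**Figure D2:**
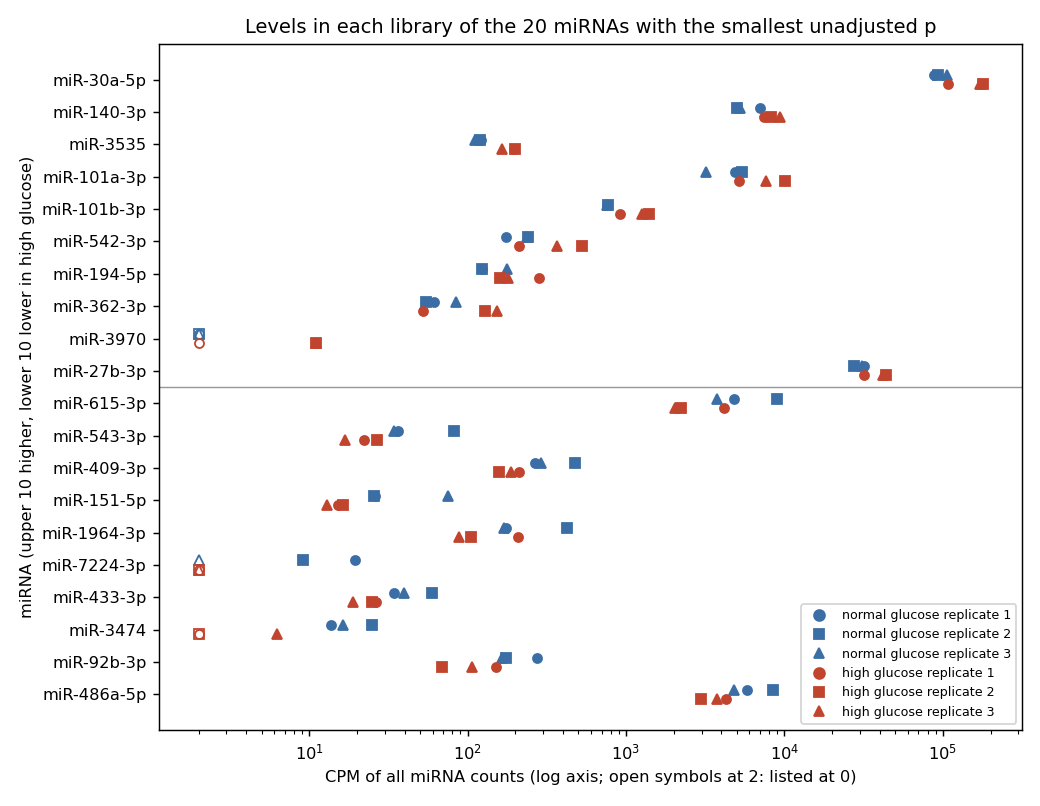
CPM (horizontal log axis) of the 10 positive and 10 negative miRNAs with the smallest unadjusted p, 1 symbol per library, open symbols at 2 for a listed 0. High glucose replicate 2 (squares) is the highest library for 7 of the upper 10 and normal glucose replicate 2 for 7 of the lower 10.

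Among other miRNAs with positive values, miR-140-3p, a strand of the cartilage hairpin in Wwp2, had 7024, 5039 and 5266 CPM in normal glucose and 7392, 8210 and 9414 CPM in high glucose. The groups did not overlap, with a fold change of 0.63 (SE 0.27, edgeR unadjusted p = 0.0308) that ranged from 0.50 to 0.77 with single libraries left out. The pair of miR-101 members, which target the histone methyltransferase Ezh2, had similar values from separate chromosomes. miR-101a-3p stood at 4838, 5417 and 3178 CPM in normal glucose and 5164, 10029 and 7692 CPM in high glucose (0.87, SE 0.42). In CPM miR-101b-3p was almost constant in normal glucose, at 761, 766 and 763 CPM, and stood at 916, 1401 and 1266 CPM in high glucose (0.76, SE 0.38). High glucose replicate 2 was highest for both, and without it they had 0.57 and 0.58. Divided by the TMM factors, the normal glucose values of miR-101b-3p lie farther apart. Its high glucose replicate 1 then falls below normal glucose replicate 2. The angiogenesis-associated miR-27b-3p had 31885, 27513 and 30702 CPM in normal glucose and 31963, 43990 and 42119 CPM in high glucose (0.50, SE 0.29). Its high glucose replicate 1 lay just above normal glucose replicate 1 in CPM, and falls below normal glucose replicates 1 and 2 when divided by the TMM factors.

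miR-3535, encoded in the Ncl intron, differed by little in CPM within each treatment. It had 122, 120 and 112 CPM in normal glucose and 196, 198 and 165 CPM in high glucose, a fold change of 0.75 (SE 0.33, edgeR unadjusted p = 0.0408) with a range of 0.64 to 0.82 over left-out libraries. Here high glucose replicate 1 lay with the other high glucose libraries. Because its locus is also annotated as a snoRNA gene, other miRNAs with an annotated small RNA gene over their locus were listed, a choice made after the values were seen. There were 10 of 308 tested miRNAs with a locus. Besides miR-3535 they included miR-1839-5p, over a scaRNA annotation, at 5660, 5096 and 5694 CPM in normal glucose and 6166, 7028 and 6217 CPM in high glucose (0.34, SE 0.29). They also included miR-1843a-5p at 0.49 (SE 0.29), miR-1843b-5p at 0.40 (SE 0.30), miR-5121 at 0.05 (SE 0.40) and miR-664-5p at -0.48 (SE 0.35). snoRNAs guide chemical marks on ribosomal RNA, and whether these reads came from miRNAs or from snoRNA fragments was not tested. The letters UGAUGA, the core of the C box of many snoRNAs, stand in miR-3535 and in 12 of the 1623 mature sequences matched (0.739%, given strand only), a description and not a site.

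Hox cluster miRNAs, encoded between the genes that pattern the body axis, lay lower in high glucose as a sum. The sum was 192910, 217241 and 203901 CPM in normal glucose and 183231, 142478 and 168134 CPM in high glucose. The groups did not overlap, at a ratio of 0.804 (exact permutation p = 0.1, two-sided). Most of it came from miR-10a-5p, at 97326, 106864 and 96848 CPM in normal glucose and 91608, 64831 and 78484 CPM in high glucose, and from miR-10b-5p, at 86888, 97611 and 99610 CPM against 83698, 71786 and 84334 CPM. These miRNAs share a seed and differ by U12A, counted from the 5′ end of miR-10a-5p. Their fold changes were -0.29 (SE 0.25) and -0.16 (SE 0.25), and both were lower in CPM in all pairs of libraries. Divided by the TMM factors, miR-10b-5p in high glucose replicate 3 lies above normal glucose replicates 1 and 3. miR-615-3p, from the Hoxc5 intron, had the most negative value of the list. It stood at 4821, 8936 and 3763 CPM in normal glucose and 4124, 2234 and 2034 CPM in high glucose, a fold change of -1.06 (SE 0.40, edgeR unadjusted p = 0.0183). Normal glucose replicate 2 was far above the others and high glucose replicate 1 lay above normal glucose replicate 3, so the groups overlapped, and without normal glucose replicate 2 the value was -0.49. The other arm, miR-615-5p, had -0.55 (SE 0.57) at 14.1 to 55.2 CPM, or -0.06 without normal glucose replicate 2 and -1.06 without high glucose replicate 1. miR-196a-5p at -0.02 (SE 0.28), miR-196b-5p at 0.10 (SE 0.35), miR-10a-3p at 0.09 (SE 0.34) and miR-10b-3p at -0.04 (SE 0.34) were nearly level. In all 6 of 8 members were negative (median -0.10), and 8 of 8 when scaled to the total miRNA count.

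The let-7 family and the miR-99, miR-100 and miR-125 families, which restrain growth and are partly encoded next to each other, had mostly negative values. Of the 9 let-7 members 7 were negative (median -0.24), and of the 6 others 5 (median -0.24). The one let-7 member without overlap in CPM was let-7b-5p, at 12386, 21705 and 12948 CPM in normal glucose and 11435, 10454 and 7282 CPM in high glucose (-0.64, SE 0.32). It differs from let-7c-5p by G17A, counted from the 5′ end of let-7b-5p, and reads of such close relatives can be assigned to the wrong member. let-7c-5p itself had 20527, 25734 and 17799 CPM in normal glucose and 18222, 18341 and 12520 CPM in high glucose (-0.32, SE 0.29). Normal glucose replicate 2 was the highest library for both, and without it let-7b-5p had -0.24 and let-7c-5p -0.08. Divided by the TMM factors, let-7b-5p in high glucose replicate 2 lies above normal glucose replicates 1 and 3. let-7i-5p at 0.27 (SE 0.39) and let-7g-5p at 0.24 (SE 0.31) had the opposite sign, so that members with the same seed did not share a direction. miR-99b-5p stood at 16703, 12941 and 10114 CPM in normal glucose and 10946, 7019 and 8093 CPM in high glucose (-0.55, SE 0.31). miR-99a-5p had 4000, 3697 and 4822 CPM against 2967, 2938 and 3386 CPM, without overlap (-0.32, SE 0.25). miR-100-5p, which differs from miR-99a-5p by U16A (counted from the 5′ end of miR-99a-5p), overlapped widely at -0.15 (SE 0.26).

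The imprinted Dlk1-Dio3 locus, whose miRNAs are read from the maternal chromosome, had mostly negative values. Of 43 members looked for, 20 were tested, 13 negative and 7 positive, with a median of -0.29. That median was -0.10 with listed zeros set to 9 reads, -0.52 with the replicate block, and -0.63 to -0.10 with single libraries left out. Of the 20, 5 were lower without overlap, beside 25 of all 361 miRNAs (6.93%). The sum of the locus overlapped, at 1500, 1725 and 1907 CPM in normal glucose and 1510, 1205 and 1525 CPM in high glucose. miR-543-3p had 36.4, 81.9 and 34.3 CPM in normal glucose and 22.1, 26.6 and 16.8 CPM in high glucose (-1.17, SE 0.45). miR-409-3p stood at 265, 476 and 291 CPM against 211, 157 and 187 CPM (-0.85, SE 0.34). Levels of miR-433-3p were 34.4, 59.8 and 39.7 CPM against 26.2, 25.1 and 18.8 CPM (-0.88, SE 0.41). All 3 were highest in normal glucose replicate 2, and without that library they had -0.54, -0.44 and -0.52. The other members without overlap were miR-323-3p at -0.72 (SE 0.40) and miR-382-5p at -0.45 (SE 0.36; -0.25 without normal glucose replicate 2). The most abundant member, miR-127-3p, at 458 to 797 CPM, did not share the direction (0.14, SE 0.32), nor did miR-379-5p (0.13, SE 0.33). By edgeR 3 of the 20 had an unadjusted p under 0.05, beside 10 of all 361 (2.77%), and 0 passed.

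miRNAs known or thought to be made outside the usual Drosha and Dicer route had negative values. All 6 members of that list were negative under every scaling tried (median -0.28). Their sum was 16710, 23845 and 23933 CPM in normal glucose and 16118, 16018 and 13934 CPM in high glucose (ratio 0.714, exact permutation p = 0.1, two-sided). The groups did not overlap in CPM, but normal glucose replicate 1 lay close to the high glucose libraries. Divided by the TMM factors, high glucose replicate 2 lies above normal glucose replicate 1, so the separation of the sum depends on the scaling. Most of the difference came from miR-423-5p, at 6004, 10605 and 12363 CPM in normal glucose and 6120, 6179 and 6045 CPM in high glucose (-0.57, SE 0.35). In CPM its high glucose libraries were nearly equal and normal glucose replicate 1 lay below them all. miR-320-3p had 6720, 10338 and 9071 CPM against 6915, 7898 and 5348 CPM (-0.29, SE 0.28).

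Lists of epithelial, growth and inflammatory miRNAs followed. The cluster of miR-183, miR-96 and miR-182 was positive in 3 of 3 members, with miR-183-5p at 28460, 24488 and 21155 CPM in normal glucose and 32985, 28374 and 24563 CPM in high glucose (0.29, SE 0.25) and miR-182-5p at 0.34 (SE 0.24). Of the miR-200 family, which represses the mesenchymal factors Zeb1 and Zeb2, and miR-205, 4 of 5 were positive, led in abundance by miR-200b-3p at 0.31 (SE 0.27). The negative member, miR-200c-3p at -1.16 (SE 1.34), was the only one without overlap, at 10.4, 12.9 and 23.5 CPM against 0, 10.2 and 7.44 CPM, levels near the listing minimum. The growth-promoting miR-17 and miR-106a clusters split, with miR-20a-5p at 0.20 (SE 0.41), miR-19b-3p at 0.80 (SE 0.51; 0.50 without high glucose replicate 3) and miR-92a-3p at -0.69 (SE 0.40). The last had 14689, 12274 and 6685 CPM in normal glucose and 8957, 4631 and 6726 CPM in high glucose. miR-92b-3p, from another locus but with the same seed, was lower without overlap, at 272, 175 and 165 CPM against 150, 68.9 and 107 CPM (-0.86, SE 0.41). The more abundant miR-25-3p carries that seed too and was level (-0.03, SE 0.27). The NF-kB-induced miR-146a-5p at -0.13 (SE 0.33), its relative miR-146b-5p at 0.02 (SE 0.32), and the cell cycle regulators miR-221-3p at 0.14 (SE 0.28) and miR-222-3p at -0.00 (SE 0.28), were near level. All 4 members of the miR-181 family, known from lymphocyte signalling, were negative, but by little (median -0.14). Of the metabolic miRNAs, miR-378a-3p, from an intron of the mitochondrial regulator Ppargc1b, had 57299, 47714 and 52836 CPM in normal glucose and 55345, 59487 and 50503 CPM in high glucose (0.17, SE 0.26). The hypoxia-induced miR-210-3p had 87.7, 30.4 and 87.6 CPM against 49.6, 36.0 and 46.2 CPM (-0.52, SE 0.36), with normal glucose replicate 2 below every high glucose library. Without that replicate it had -0.84, and without normal glucose replicate 1 it had -0.29.

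**Figure D3:**
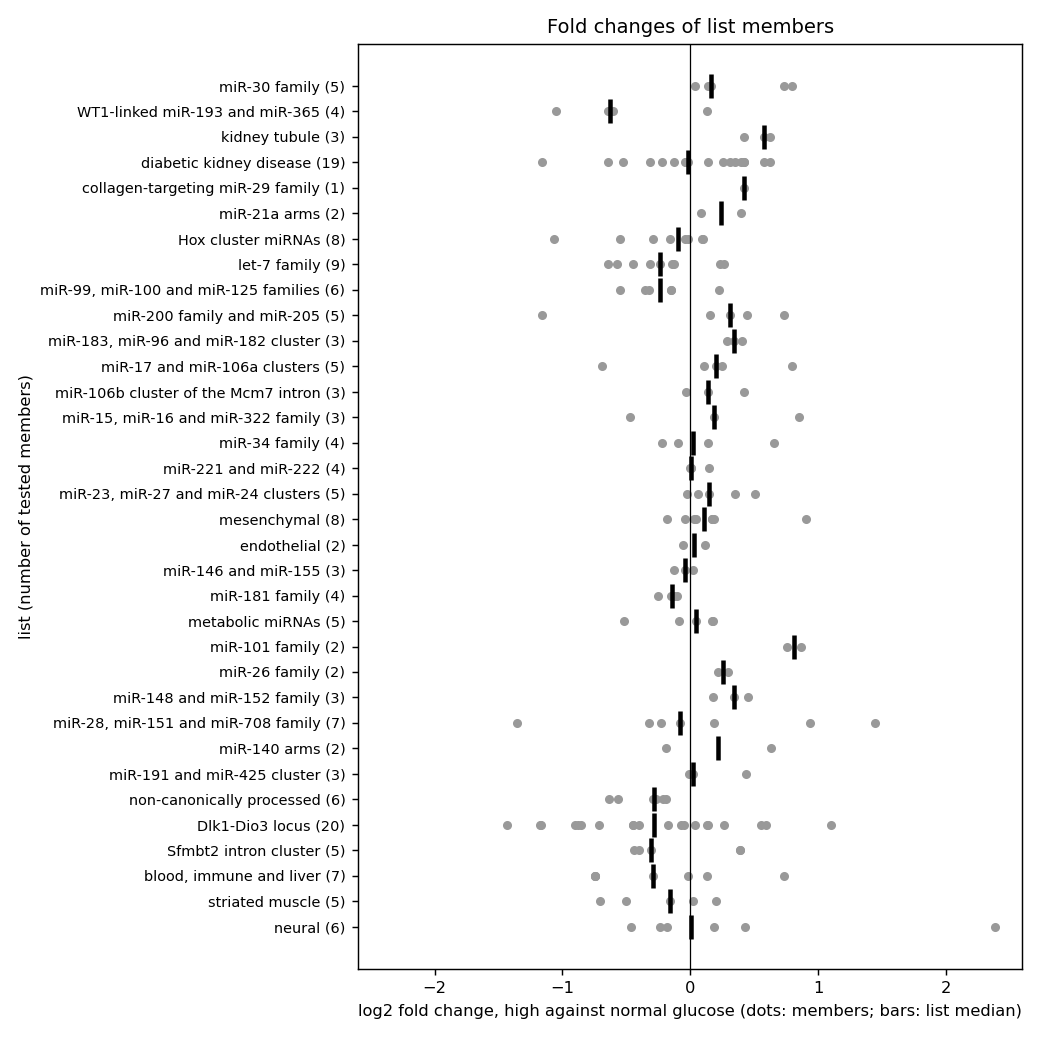
Log2 fold changes of high against normal glucose (horizontal axis) for the tested members of each list, 1 dot per miRNA, with a bar at the list median and the number of tested members in brackets. Medians lie between -0.63 (WT1-linked miRNAs) and 0.81 (the pair of miR-101 members), and 0 members passed the edgeR test.

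miRNAs that are abundant in other cells were examined beside these results. The red cell miRNA miR-486a-5p, whose counts are identical to those of miR-486b-5p, had 5773, 8483 and 4780 CPM in normal glucose and 4298, 2985 and 3758 CPM in high glucose, without overlap (-0.75, SE 0.36; -0.37 without normal glucose replicate 2). Its companion of red cells, miR-451a, was level, at 222, 128 and 243 CPM against 208, 139 and 196 CPM (-0.02, SE 0.32). Summed over the 3 red cell markers, of which miR-144-3p was at 0, levels were 5023 to 8611 CPM in normal glucose and 3124 to 4506 CPM in high glucose. That sum is nearly all miR-486a-5p and so is not a separate result. The muscle miRNA miR-206-3p was lower without overlap as well, at 1404, 2221 and 1813 CPM against 1340, 1144 and 1187 CPM (-0.50, SE 0.30; -0.24 without normal glucose replicate 2). The 3 muscle markers summed to 1666 to 3029 CPM in normal glucose and 1401 to 1761 CPM in high glucose. Leukocyte markers stayed at or below 57.9 CPM in sum, and mesangial and smooth muscle markers spanned 807 to 3054 CPM in normal glucose and 1354 to 1693 CPM in high glucose. Endothelial markers spanned 229 to 825 CPM and 276 to 678 CPM. The part of such miRNAs in the other results was not tested.

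A single library set the value of several rare miRNAs. miR-9-5p, a neural miRNA, reached 254 CPM in high glucose replicate 1, against 0 to 27.1 CPM in the other 5 libraries. Its partner arm miR-9-3p did not overlap between treatments but differed by less, at 45.5 to 53.3 CPM in normal glucose and 55.2, 65.0 and 64.2 CPM in high glucose. Muscle miR-1a-3p had 917 CPM in normal glucose replicate 3 and 55.9 to 302 CPM elsewhere. miR-151-5p, higher in all normal glucose libraries, had 26.0, 25.8 and 75.0 CPM there against 15.2, 16.4 and 12.9 CPM in high glucose (-1.35, SE 0.60; -0.78 without normal glucose replicate 3). miR-3970 was listed only in high glucose replicates 2 and 3, at 11.0 CPM in each, and miR-7224-3p only in normal glucose replicates 1 and 2, at 19.5 and 9.20 CPM. For these last 2 no fold is given, since a listed 0 may stand for up to 9 reads.

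Counts were also summed over miRNAs with the same seed, the unit that decides predicted targets. Of 253 seed families edgeR called 0 (0% called), with 8 at an unadjusted p under 0.05 (3.16%) and a smallest adjusted p of 0.949. By DESeq2 0 families passed, with 11 at that unadjusted p, and by limma-voom 0, with 7. For 22 families (8.7%) the groups did not overlap. The seed GUAAACA, carried by miR-30a-5p, miR-30e-5p and miR-30c-5p among the matched sequences, had 89484, 95181 and 108499 CPM in normal glucose and 109803, 182405 and 172695 CPM in high glucose (0.75, SE 0.32). That sum is nearly all miR-30a-5p, because the relatives miR-30d-5p and miR-30b-5p matched no RefSeq sequence and were left out. Summed over all 5 miR-30 members, levels were 126420, 136414 and 140209 CPM in normal glucose. In high glucose they were 149949, 224982 and 206766 CPM, a ratio of 1.44. The seeds ACCACAG (0.61, SE 0.24) and GGAUAUG (0.71, SE 0.33) were those of miR-140-3p and miR-3535 alone. On the lower side CCGAGCC (-1.12, SE 0.41), AACAUUC (-1.23, SE 0.47) and AAUGUUG (-0.90, SE 0.35) were each carried by 1 listed miRNA, miR-615-3p, miR-543-3p and miR-409-3p. Among the matched sequences, the seed families with the smallest p were thus mostly single miRNAs and not groups that share targets.

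The balance of the 2 arms of a hairpin does not depend on how a library is scaled. Of 41 hairpins with both arms listed in all 6 libraries, 17 shifted toward the 5p arm and 24 toward the 3p arm in high glucose, and the groups did not overlap for 4 (9.76%), 2 each way (4.88% toward 5p and 4.88% toward 3p). For miR-140 the log2 ratio of 5p to 3p counts was -8.15, -8.03 and -7.65 in normal glucose and -8.39, -9.27 and -8.72 in high glucose, a difference of -0.85, with a 5p arm of only 29.7 counts on average. For miR-99b, with a mean of 5212 counts in its rarer arm, the ratio was 1.86, 1.89 and 1.35 in normal glucose and 1.27, 1.29 and 1.19 in high glucose, a difference of -0.45. Toward the 5p arm lay miR-351, at 1.70, 1.75 and 1.39 against 1.94, 2.06 and 2.45, and miR-872, at 1.25, 2.0 and 2.08 against 2.30, 2.29 and 2.14, with only 21.8 and 49.0 counts on average in the rarer arms. The miR-30a ratio overlapped, at 2.70, 3.50 and 3.34 in normal glucose and 2.87, 4.41 and 4.01 in high glucose. Replicate 1 was thus lowest for miR-30a in both treatments, and its 3p arm alone had a fold change of 0.15. No test was run on these ratios.

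**Figure D4:**
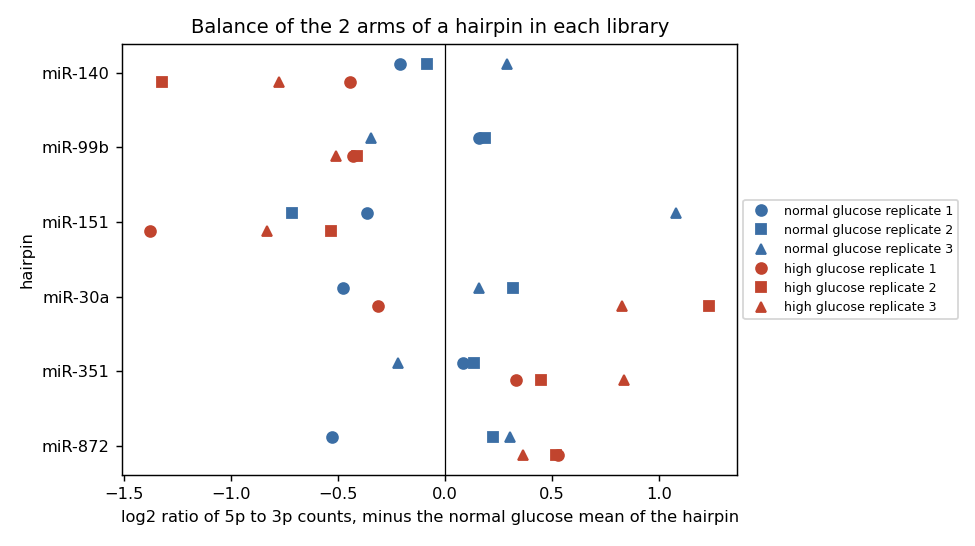
Log2 ratio of 5p to 3p counts for 6 hairpins, minus the normal glucose mean of the hairpin (horizontal axis), 1 symbol per library. The groups are apart for miR-140, miR-99b, miR-351 and miR-872 and overlap for miR-151 and miR-30a.

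Measures of the whole profile were compared between libraries. The 10 most abundant took 55.3%, 54.9% and 55.9% of miRNA counts in normal glucose and 56.0%, 61.2% and 61.8% in high glucose (exact permutation p = 0.1, two-sided). High glucose replicate 1 was level with normal glucose replicate 3, and the other two were higher. Shannon entropy overlapped, at 5.45, 5.38 and 5.41 bits in normal glucose and 5.40, 5.17 and 5.17 bits in high glucose (exact permutation p = 0.2, two-sided). The mean length of a counted miRNA, by its RefSeq sequence, was 22.21, 22.23 and 22.23 bases in normal glucose and 22.20, 22.11 and 22.15 bases in high glucose, also without overlap. Of 43 such library measures, 34 of them list sums, 7 did not overlap (16.3%) and so reached the smallest exact permutation p of 0.1, and after Benjamini-Hochberg adjustment the smallest of these exact p-values was 0.586. Besides these 2 and the Hox, WT1-linked and non-canonically processed sums given above, they were the miR-30 sum and the sum of the miR-140 arms. List sums were compared in CPM. Divided by the TMM factors, the groups overlap for the miR-30, WT1-linked and non-canonically processed sums. Hox and miR-30 members are themselves among the 10 most abundant, so these measures are not separate results.

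Fold changes also went with base composition. Across the 229 miRNAs with a matched sequence that were listed in all 6 libraries, they were lower at higher GC content of the mature miRNA (Pearson's r -0.44, Spearman's rho -0.45, a description across miRNAs that share the same libraries). Of the 33 miRNAs under 40% GC, 27 were positive (median 0.33), and of the 39 with 60% or more, 29 were negative (median -0.19). Libraries of one treatment differed in this respect. Relative to the normal glucose mean, miRNAs under 40% GC had medians of -0.34, 0.17 and 0.04 in normal glucose and -0.07, 0.62 and 0.44 in high glucose, and those of 60% or more had 0.27, -0.03 and -0.28 against 0.13, -0.28 and -0.22. Both replicates numbered 1 lay on the GC-rich side, and without normal glucose replicate 1 Spearman's rho was -0.16. Among the miRNAs described above, miR-101a-3p has 33.3% GC, miR-30a-5p 45.5% and miR-615-3p 63.6%, and the part of base composition in their values was not tested.

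**Figure D5:**
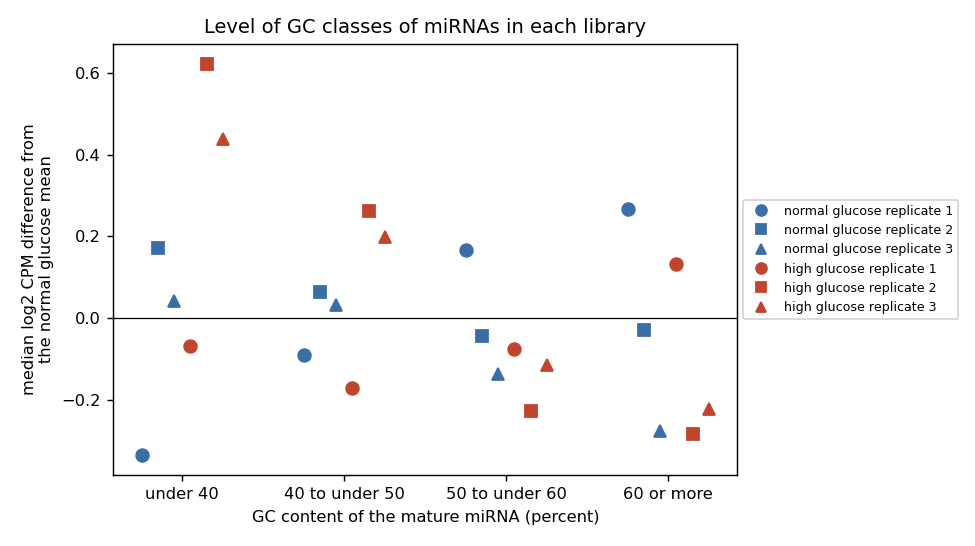
Median difference of log2 CPM from the normal glucose mean (vertical axis) for miRNAs in 4 classes of GC content (horizontal axis), 1 symbol per library. In the class under 40% GC the libraries run from -0.34 (normal glucose replicate 1) to 0.62 (high glucose replicate 2), and in the class of 60% or more the order of these libraries is turned round.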

How the data were processed

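Small RNA libraries were made by ligating adapters and selecting the product by size on a gel, per the labels' protocols. For each library the authors deposited counts per miRNA identifier and an RPM column, in which each count is divided by 1 constant of the library, per the file headers and the values. The submitters' processing notes name bcl2fastq, BWA and the build mm10; their settings and what the constant counts are not stated there.

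The counts of 9 libraries were fitted with edgeR 4.0.16 in R 4.3.3 (TMM scaling, filterByExpr by group, robust quasi-likelihood fit, group as the only term), and high glucose was contrasted with normal glucose. Benjamini-Hochberg adjustment ran over 361 miRNAs or 253 seed families, with a threshold of 0.05. The fitting script was tested on simulated data. Alternatives were DESeq2 1.42.0, limma-voom (limma 3.58.1), other scalings and filters, listed zeros set to 9 reads, and single libraries left out. Library measures were compared by exact permutation tests. Identical identifiers entered a sum once. Named were the 10 miRNAs each way with the smallest unadjusted p, the 10 most abundant, the 2 most abundant tested members of each list, hairpins without overlap and the 3 seed families each way with the smallest p. Others named belong to these lists or lacked overlap, or were picked with their values in view. The members and lists were chosen with earlier results of these data known.

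Nothing in the labels says that a group's libraries were separate cultures, and p-values then measure only the spread between samples, which may be technical. Chi-square statistics per degree of freedom of 74.8 to 194 showed no library deposited more than once within the normal glucose or the high glucose group. Pairs between groups and mannitol libraries were not compared in this way. Titles without a number were read as replicate 1. Deviations from the group means correlated at 0.197, 0.316 and 0.244 between high and normal glucose libraries of the same number. Between those of unlike number they correlated at -0.271 to 0.0369. An alternative fit therefore used the number as a replicate block. The labels state no such pairing, and the main fit has no block.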

Additional observations from a re-analysis of the deposited data

How the results depend on the processing

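The count of 0 miRNAs past the threshold held under every alternative run except the fit with no expression filter, which called 2 (miR-9-5p and miR-6538, named after their values were seen). The counts of miR-9-5p were 184 in high glucose replicate 1 and 0 to 35 in the others of the 6 libraries, so 1 library set its value. The count of seed families was 0 under every alternative run. At an unadjusted p under 0.05 there were 10 miRNAs by edgeR, 15 by DESeq2, 6 by limma-voom, 14 scaled to the total miRNA count, 2 scaled to the library constant, 27 with no filter, 15 with the 6 libraries only, 19 with the replicate block and 25 with 6 libraries and the block. Leaving out single libraries gave 1 miRNA (high glucose replicate 2 left out) to 25 (mannitol replicate 2 left out). For seed families the count of 8 became 1 scaled to the library constant, 18 with no filter, 17 with the replicate block, 20 with 6 libraries and the block, and 3 to 19 with single libraries left out. Hairpins without overlap in arm balance numbered 8 with listed zeros set to 9 reads, and 4 to 18 with single libraries left out. The first count takes in hairpins with an unlisted arm, such as miR-212. Smaller groups separate more easily, so neither count can be set against the 4 of 41 (9.76%) above. The pairing by replicate number changed no call. Other scalings moved the median of all miRNAs from -0.04 to -0.14 (total miRNA count) and -0.12 (library constant), and the positive share from 168 to 136 and 148 of 361.

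Signs of small values turned with the choice of libraries or scaling, and the cause was not tested. With single libraries left out the ranges were miR-25-3p -0.16 to 0.21, miR-193b-3p -1.01 to 0.078, miR-193a-5p -0.067 to 0.25, miR-21a-3p -0.94 to 0.95, miR-20a-5p -0.0088 to 0.40, miR-16-5p -0.051 to 0.34, miR-15a-5p -1.20 to 0.057, miR-34c-3p -0.051 to 0.44, miR-221-3p -0.061 to 0.32, miR-222-3p -0.14 to 0.20, miR-143-3p -0.40 to 0.57, miR-199a-3p -0.029 to 0.39, miR-126a-3p -0.42 to 0.42, miR-126a-5p -0.57 to 1.93, miR-146b-5p -0.15 to 0.16, miR-146a-5p -0.33 to 0.23, miR-181a-5p -0.33 to 0.034, miR-181b-5p -0.29 to 0.083, miR-148a-3p -0.044 to 0.43, miR-191-5p -0.096 to 0.098, miR-425-5p -0.29 to 0.30, miR-122-5p -0.67 to 0.021, miR-1a-3p -1.22 to 1.13 and miR-30c-5p -0.17 to 0.32. Scaled to the library constant these became -0.023 for miR-193a-5p, -0.034 for miR-21a-3p, -0.0080 for miR-34c-3p, 0.0080 for miR-143-3p, -0.035 for miR-126a-5p, -0.019 for miR-146b-5p, -0.062 for miR-425-5p and -0.15 for miR-30c-5p. Scaled to the total miRNA count these became -0.20 for miR-21a-3p, -0.011 for miR-126a-5p, -0.095 for miR-146b-5p, -0.13 for miR-425-5p and -0.029 for miR-30c-5p. With the replicate block these became -1.47 for miR-21a-3p, 0.020 for miR-222-3p, 0.11 for miR-143-3p, 0.032 for miR-126a-3p and 0.66 for miR-1a-3p. With 6 libraries and the replicate block (chosen after seeing the data) these became -0.30 for miR-21a-3p, 0.0077 for miR-222-3p, 0.13 for miR-143-3p and 0.055 for miR-1a-3p. With listed zeros set to 9 reads these became 0.0071 for miR-15a-5p, 0.020 for miR-222-3p and 0.014 for miR-191-5p. By limma-voom these became 0.031 for miR-222-3p, 0.17 for miR-143-3p, 0.049 for miR-126a-3p and 0.14 for miR-1a-3p. By DESeq2 these became -0.0069 for miR-146b-5p and -0.013 for miR-425-5p. With DESeq2 size factors in edgeR these became -0.0071 for miR-146b-5p and -0.013 for miR-425-5p. With miRNAs listed in all libraries only these became -0.0048 for miR-146b-5p. With the 6 libraries only these became -0.013 for miR-146b-5p and -0.0016 for miR-425-5p. 

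Library measures also changed sign (high minus normal glucose) with single libraries left out, from -36.5 to 18 miRNAs listed and from -1.75 to 0.524 percentage points on 3p arms. In summed CPM the ranges were -2864 to 3970 for the list diabetic kidney disease, -7583 to 3517 for the list miR-106b cluster of the Mcm7 intron, -64.1 to 63.9 for the list miR-15, miR-16 and miR-322 family, -952 to 868 for the list miR-221 and miR-222, -654 to 529 for the list mesenchymal, -167 to 131 for the list endothelial, -225 to 114 for the list miR-146 and miR-155, -113 to 724 for the list miR-26 family and -654 to 20.9 for the list miR-191 and miR-425 cluster. Depth limits rare miRNAs most, since 10 reads are 13.8 CPM in high glucose replicate 1.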

Other observations

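Neighbouring hairpins are often made from 1 transcript. Of 21 groups of hairpins within 10 kb of each other with at least 3 tested miRNAs, 2 were positive throughout and 2 negative throughout. The positive ones were miR-199a-2 with miR-214 on chromosome 1 (3 miRNAs, median 0.04) and miR-30c-1 with miR-30e in the Nfyc intron on chromosome 4 (3 miRNAs, median 0.22). The negative ones were miR-193b with miR-365 on chromosome 16 (3 miRNAs, median -0.65) and let-7f-2 with miR-98 on chromosome X (3 miRNAs, median -0.14). The X-linked group of miR-450b, miR-542, miR-503 and miR-322 had 5 of 6 positive, with miR-542-3p at 175, 239 and 237 CPM in normal glucose and 211, 529 and 364 CPM in high glucose (0.89, SE 0.45). Some of these miRNAs, such as miR-30c-5p, miR-199a-3p and let-7f-5p, are also encoded at another locus, so their counts cannot be credited to 1 group. These values are descriptions with no test of the group.

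Over the 261 miRNAs listed in all 6 libraries the median SD of log2 CPM was 0.36 in normal glucose and 0.32 in high glucose, and it was larger in high glucose for 119 of them.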
